A study of Mus musculus with 10 samples.

Results

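The genes described here are 8 negative regulators of the MAP kinase pathways, read across mouse regulatory T cells (Tregs), the Foxp3-expressing CD4 T cells that keep other immune cells in check. They are the dual-specificity phosphatases Dusp2, Dusp4, Dusp5, Dusp6 and Dusp10, the Sprouty genes Spry1 and Spry2, and the Sprouty-related gene Spred1. They were picked by symbol, each symbol was represented by its transcript with the highest mean reads, and all 8 were present among the 23992 gene symbols measured. In the ERK cascade, Ras activates RAF, RAF activates the MEK kinases, and MEK activates ERK by adding phosphates to a threonine and a tyrosine. Dual-specificity phosphatases remove those phosphates, while Sprouty and Spred proteins act further upstream and hold back the activation of Ras or RAF. Several of these genes are themselves switched on by ERK activity, so their RNA is often read as a trace of earlier signalling, and in T cells they are known as brakes on antigen receptor signals.

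RNA of 10 libraries was sequenced from 4 groups of Tregs, all from mice of the C57BL/6J strain. The TCR+TSLP group (2 libraries) held wild-type natural Tregs from spleen that spent 24 h in culture with anti-CD3 and anti-CD28, antibodies that trigger the T cell receptor (TCR) and its co-stimulatory receptor, and with TSLP. The TCR group (2 libraries) held the same kind of cells with the same antibodies and no TSLP. TSLP is an epithelial cytokine of allergic inflammation that is sensed by a receptor made of Crlf2 and Il7ra and signals mainly through JAK kinases and STAT5. The Crlf2-deleted group (3 libraries) held Tregs from the lungs of ovalbumin-immunized mice that carried Foxp3 YFP-Cre and floxed Crlf2 alleles. The lung control group (3 libraries) came from equally immunized mice with Foxp3 YFP-Cre and no floxed allele named, so the Cre allele was shared by both lung groups, and their characteristics label reads wild-type. The recombinase is expressed together with Foxp3, so the deletion is aimed at cells that express Foxp3. Neither ages nor any pooling of animals is stated in the labels. Nothing in the labels marks the replicates as separate mice or cultures, so every p-value here speaks only of the scatter among these libraries, which may be technical.

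Reads assigned to the transcripts that stood for the genes numbered 34852308 and 51671901 in the TCR+TSLP libraries and 27866031 and 27237313 in the TCR libraries. They numbered 9647686 to 18349039 in the Crlf2-deleted libraries and 7970213, 1439675 and 12179230 in the control libraries, so control 2 gives the least precise values. Crlf2 checked the labels. It was at 8.45, 6.30 and 3.34 CPM (reads scaled to library size, after TMM scaling over all 10 libraries) in Crlf2-deleted lung Tregs and at 86.1, 134 and 97.2 CPM in control lung Tregs (log2 fold change -4.16 ± 0.36 SE, adjusted p = 0.00465, edgeR quasi-likelihood test). All 10 libraries held reads of the Treg marker Foxp3, at 151 and 168 CPM with TCR+TSLP, 194.9 and 172 CPM with TCR, 360 to 458 CPM in Crlf2-deleted lung Tregs, and 439, 401 and 185 CPM in control lung Tregs. Control 3 stood apart from the other lung libraries. Its 5 erythroid markers summed to 105221 CPM, against 1152 to 4228 CPM in the other 5 lung libraries, and its B cell markers summed to 308 CPM, against 12.5 to 23.9 CPM. Its dendritic cell and neutrophil sums were the highest of the lung too. The airway secretoglobin Scgb1a1, a club cell gene, was read in every lung library, at 2038 to 71172 CPM, and at 0 reads in every spleen library. Fold changes of the 8 genes in lung are therefore given with and without control 3. RNA of bulk samples cannot tell fewer cells of a type from less RNA per cell.

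**Figure D1:**
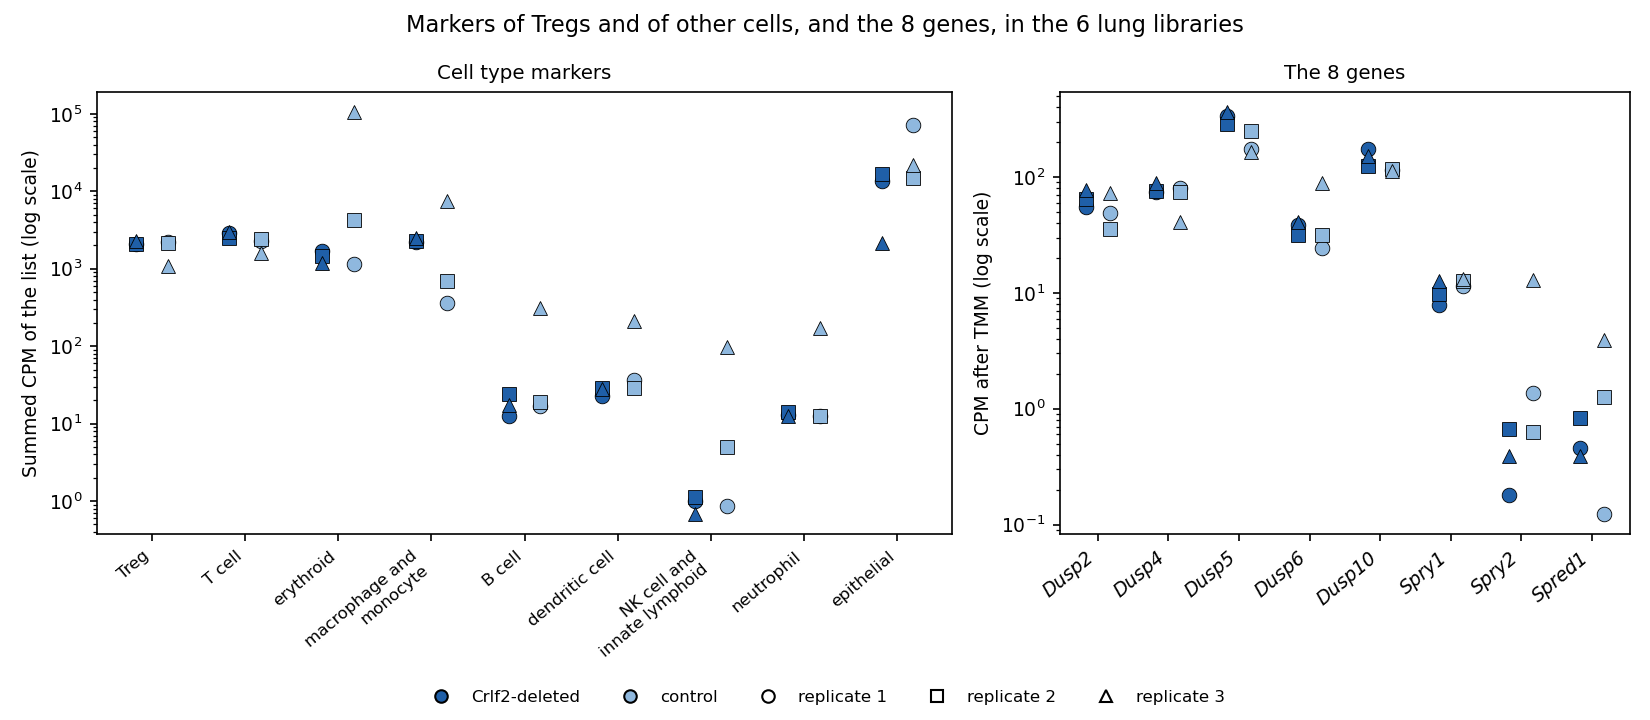
Summed CPM of 9 cell type marker lists (left) and CPM of the 8 genes (right) in the 6 lung libraries, each point a library, with Crlf2-deleted left of control and log axes. Control 3 (triangle) carries the highest erythroid, macrophage, B cell, dendritic cell, NK cell and neutrophil sums and the highest Dusp6, Spry2 and Spred1 of the lung.

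The loci of the 8 genes lie on 7 chromosomes of the mouse build mm10 (GRCm38). Dusp2 is at chr2:127336159-127338377, Dusp4 at chr8:34807610-34819894, Dusp5 at chr19:53529145-53541809, Dusp6 at chr10:99263231-99267489 and Dusp10 at chr1:184034381-184075636, all on the plus strand. Spry1 is at chr3:37639947-37644599 and Spred1 at chr2:117121071-117182279 on the plus strand, and Spry2 at chr14:105891947-105896819 on the minus strand. The transcripts counted were 1155 bp long for Dusp5 and 1618 to 6317 bp for the other 7. The Dusp5 transcript covers less than the longest annotated Dusp5 transcript of 2473 bp, so its reads come from part of the messenger RNA.

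Promoter windows, from 250 bases before to 50 bases after the gene start, were found for 7 of the 8 genes in RefSeq (GRCm38.p6). Those of Dusp5 and Dusp2 are shown because these genes moved in opposite directions in every contrast between groups that called both. Capitals in the Dusp5 window mark matches to the CArG box, the site of serum response factor (Srf), a factor that works with ERK-driven ETS proteins. Of the motifs searched, the Dusp2 window held none.

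Dusp5, chr19:53528895-53529194, plus strand: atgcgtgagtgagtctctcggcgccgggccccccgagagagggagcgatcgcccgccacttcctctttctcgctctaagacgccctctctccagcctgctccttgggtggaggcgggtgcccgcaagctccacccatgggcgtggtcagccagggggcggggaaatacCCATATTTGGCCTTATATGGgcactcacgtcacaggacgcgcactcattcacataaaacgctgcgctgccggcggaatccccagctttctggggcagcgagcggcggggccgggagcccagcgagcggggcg
Dusp2, chr2:127335909-127336208, plus strand: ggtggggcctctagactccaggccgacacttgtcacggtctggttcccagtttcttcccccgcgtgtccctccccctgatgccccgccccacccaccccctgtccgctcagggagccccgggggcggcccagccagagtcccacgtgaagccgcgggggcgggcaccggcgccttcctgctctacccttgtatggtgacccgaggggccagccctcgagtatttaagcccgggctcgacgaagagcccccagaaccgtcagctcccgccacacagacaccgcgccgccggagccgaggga

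The Dusp5 window held a pair of CArG matches that directly abut, CCATATTTGG and CCTTATATGG, starting 82 and 72 bases before the gene start. A CArG match was present in 1 of the 7 windows, that of Dusp5, and in 1.63% of the 32851 promoter windows of the mouse. The CArG box was added to the search after the windows were seen. The ETS core CCGGAA was in 1 of the 7 windows, that of Spry2, and in 14.9% of all windows. The STAT motif TTCNNNGAA (8.3% of all windows), the CRE motif TGACGTCA (1.79%) and the AP-1 motif TGANTCA (7.81%) were in 0 of the 7. Both strands were searched, and a match describes letters and not a bound site. Srf RNA itself was at 55.7 CPM in control lung Tregs and 110 CPM in TCR spleen Tregs, lower in lung (log2 fold change -0.92, adjusted p = 0.00917, edgeR). Its log2 fold change was 0.05 with TSLP (adjusted p = 0.668) and -0.22 with Crlf2 deletion in lung (adjusted p = 0.673, edgeR). The part of Srf in the level of Dusp5 was not tested.

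The make-up of the 5 Dusp genes differed between the spleen cultures and the lung. Levels of different genes are compared here as CPM per kb of transcript, and the share is that of the summed level of the 5 Dusp genes. Dusp2 led these 5 genes in the spleen cultures, with 46.2% and 44.4% of the sum in TCR+TSLP libraries and 63.0% and 62.7% in TCR libraries. In the lung it held 7.82%, 10.5% and 10.1% in Crlf2-deleted libraries and 11.4%, 6.86% and 16.1% in control libraries.

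Dusp5 took that place among the 5 in the lung, with 67.3%, 66.1% and 67.1% of the sum in Crlf2-deleted libraries and 56.5%, 66.7% and 51.3% in control libraries. In the spleen cultures it held 21.7% and 23.6% in TCR+TSLP libraries and 10.4% and 11.01% in TCR libraries. Expressed as a ratio of per-kb levels, Dusp5 over Dusp2 was 0.471 and 0.531 with TCR+TSLP, 0.166 and 0.175 with TCR, 8.61, 6.28 and 6.64 in Crlf2-deleted lung Tregs, and 4.95, 9.73 and 3.18 in control lung Tregs. The TCR+TSLP ratios lie above both TCR ratios, whereas the lung groups overlap.

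The summed level of the 5 phosphatases was 243 and 256 CPM per kb with TCR+TSLP and 224 and 235 CPM per kb with TCR. It was 433, 378 and 469 CPM per kb in Crlf2-deleted lung Tregs and 265, 323 and 278 CPM per kb in control lung Tregs. The 3 Sprouty and Spred genes together were far lower, at 15.1 and 14.7 CPM per kb with TCR+TSLP, 10.0 and 13.4 with TCR, 3.30 to 5.30 in Crlf2-deleted lung Tregs, and 5.30, 5.55 and 12.1 in control lung Tregs, the highest being control 3.

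**Figure D2:**
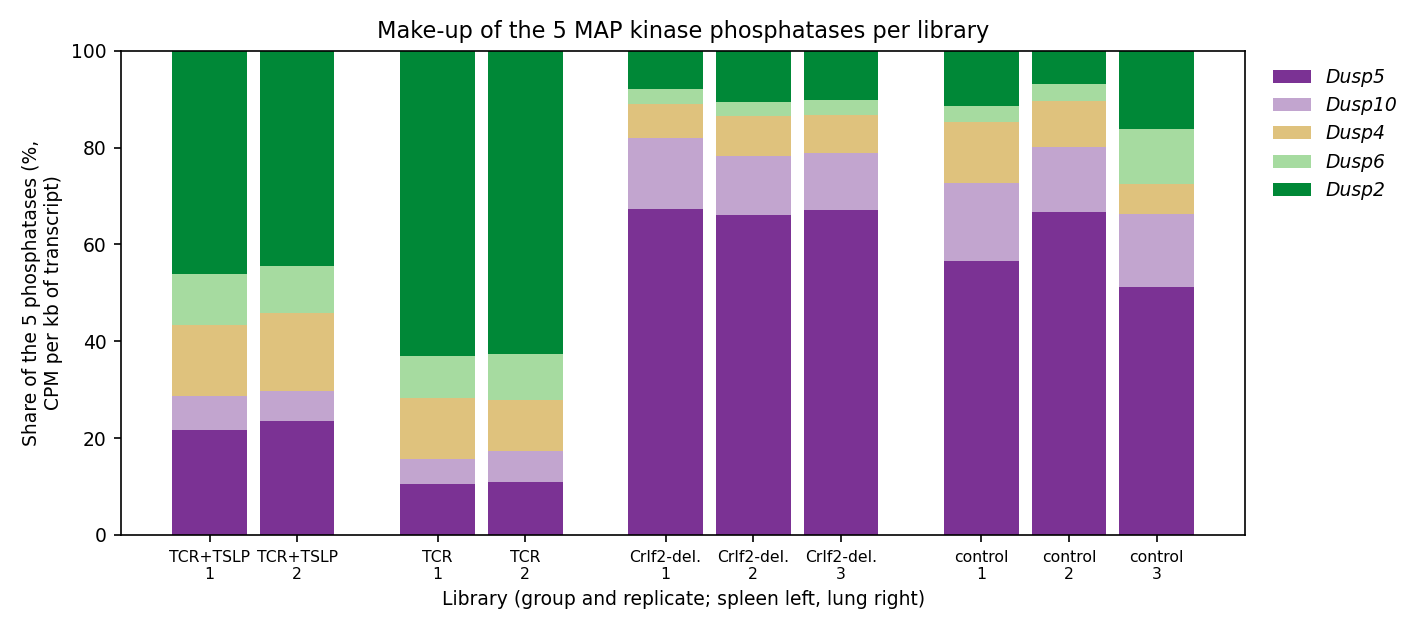
Share of each of the 5 MAP kinase phosphatases in their summed CPM per kb of transcript, one stacked bar per library, spleen cultures left and lung Tregs right. Dusp2 fills 44.4% to 63.0% of the bars in spleen and Dusp5 51.3% to 67.3% in lung.

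The first comparison asked how TSLP, added to TCR stimulation, changed these genes in spleen Tregs. Dusp5, Spred1 and Dusp4 rose with TSLP and Dusp2 fell, while Dusp6, Dusp10, Spry1 and Spry2 did not pass the threshold of an adjusted p of 0.05 (edgeR quasi-likelihood test, Benjamini-Hochberg over all genes tested). So 3 of 8 genes were higher and 1 lower, against a background in which 45.8% of 13214 tested genes were called (22.7% higher and 23.1% lower). The share of called genes among the 8 was near that of all genes. The direction of calls depends on the scaling, with 2999 genes higher and 3051 lower after TMM, 5059 higher and 2000 lower with library totals alone, and 5568 higher and 1305 lower by limma on log2(RPKM + 1). On both of those scales 5 of the 8 genes were higher and 0 lower. After TMM their median log2 fold change was 0.24, against 0.01 over all genes tested. With library totals alone it was 0.47, against 0.24 over all genes, and by limma 0.53, against 0.20.

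Dusp5, a nuclear phosphatase specific for ERK, had 61.0 and 69.6 CPM with TCR+TSLP, against 27.0 and 29.9 CPM with TCR. Both TSLP libraries stood above both TCR libraries, and the rise with TSLP was 2.22-fold (1.15 ± 0.11 SE on the log2 scale, adjusted p = 0.000223, edgeR). It was called under every alternative tried, with log2 fold changes between 1.06 and 1.68. Short transcripts as a class were lower in the TSLP libraries, and at the length of the Dusp5 transcript the trend over all genes was -0.41. With that trend removed, the log2 fold change of Dusp5 was 1.56 (adjusted p = 0.000468).

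Dusp4, a nuclear phosphatase of ERK, JNK and p38, had 86.7 and 100.0 CPM with TCR+TSLP, against 68.6 and 60.3 CPM with TCR. The groups did not overlap, and the rise was 1.40-fold (log2 fold change 0.49 ± 0.11 SE, adjusted p = 0.00902, edgeR). The call was lost without TSLP 2 (adjusted p = 0.116) and when all 4 groups shared 1 fit (adjusted p = 0.26).

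Dusp2, a nuclear phosphatase of activated lymphocytes that acts on ERK and p38, had 181 and 184 CPM with TCR+TSLP, against 229 and 238 CPM with TCR. It was the only one of the 8 called lower in this comparison, at 0.756 of the TCR level (log2 fold change -0.40 ± 0.08 SE, adjusted p = 0.00535, edgeR). The fall depends on the scaling, since limma on log2(RPKM + 1) gave -0.03 (adjusted p = 0.855) and library totals alone gave -0.17 (adjusted p = 0.0978), and the median of all genes was 0.20 and 0.24 on these scales, against 0.01 after TMM. It was also lost without either TSLP library (adjusted p = 0.078 and 0.0892), with the length trend removed (-0.20, adjusted p = 0.0848), with length and GC trends removed (-0.04, adjusted p = 0.736), and with all 4 groups in 1 fit (adjusted p = 0.446). The sum of the 5 B cell markers moved the same way, at 78.1 and 78.6 CPM with TCR+TSLP against 120 and 114 CPM with TCR. Among them Ms4a1 alone went the other way, at 14.3 and 15.2 CPM with TCR+TSLP against 10.9 and 13.6 CPM with TCR. The T cell marker sum (4 of 5 measured) was 1652 and 1655 CPM with TCR+TSLP against 1999 and 2040 CPM with TCR. Its fall came from Cd3d, at 321 and 299 CPM with TCR+TSLP against 711 and 674 CPM with TCR. Cd4 rose (406 and 446 against 363 and 370 CPM), and the groups overlapped for Cd3e and Lck. The part of B cell or T cell RNA in the fall of Dusp2 was not tested.

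Dusp6, the cytoplasmic phosphatase specific for ERK, had 71.5 and 69.9 CPM with TCR+TSLP, against 55.0 and 61.7 CPM with TCR. Dusp10, which acts mainly on p38 and JNK, had 45.1 and 42.8 CPM with TCR+TSLP, against 31.8 and 40.1 CPM with TCR. For neither gene did the groups overlap, which was also true of 75.9% of all genes tested with 2 libraries a group. The log2 fold changes were 0.23 ± 0.10 SE for Dusp6 (adjusted p = 0.0873) and 0.24 ± 0.12 SE for Dusp10 (adjusted p = 0.139, edgeR). Both were called by limma on log2(RPKM + 1), with library totals alone, and without TCR 2.

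Among the regulators upstream of RAF, Spred1, which brings the Ras inactivator neurofibromin to the membrane, had 37.8 and 36.3 CPM with TCR+TSLP, against 19.6 and 25.2 CPM with TCR. The groups did not overlap, and the rise with TSLP was 1.60-fold (0.68 ± 0.13 SE on the log2 scale, adjusted p = 0.00405, edgeR). The shorter of its 2 listed transcripts had 123 and 205 reads with TCR+TSLP, against 70 and 65 reads with TCR, not scaled to depth. The TCR+TSLP libraries were larger (34852308 and 51671901 reads against 27866031 and 27237313), so these raw reads overstate any rise. The call was lost with all 4 groups in 1 fit (adjusted p = 0.621) and with length and GC trends removed (0.38, adjusted p = 0.0553).

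Spry1, an inhibitor of receptor signalling to Ras, had 20.01 and 20.6 CPM with TCR+TSLP, against 14.8 and 20.8 CPM with TCR, and the groups overlapped (log2 fold change 0.15 ± 0.16 SE, adjusted p = 0.478, edgeR). The TCR libraries disagree on it. Without TCR 2 the log2 fold change was 0.43 (adjusted p = 0.000571), and without TCR 1 it was -0.07. Spry2, a close relative of Spry1, was near the lower end of detection, with 72 and 74 reads (2.17 and 1.49 CPM) with TCR+TSLP and 49 and 51 reads (2.07 and 2.24 CPM) with TCR. The difference of -0.29 ± 0.30 SE on the log2 scale (adjusted p = 0.442, edgeR) was not detectable at this depth.

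**Figure D3:**
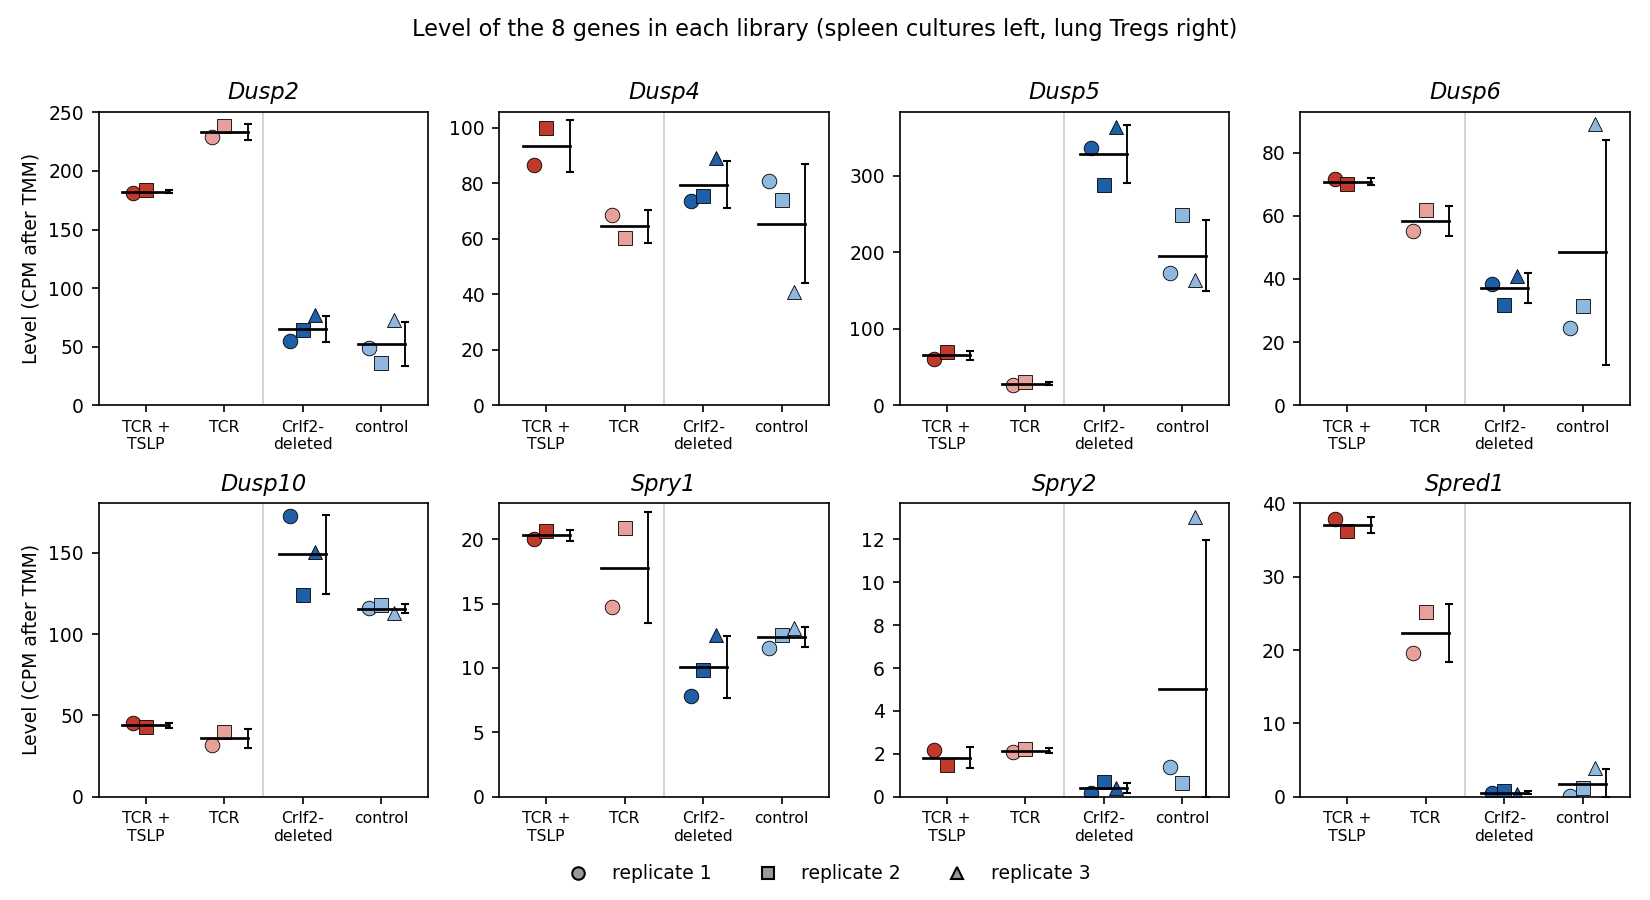
Level of each of the 8 genes in CPM after TMM in every library of the 4 groups, with the group mean as a line and 1 SD as the bar beside it, cut at 0. In Dusp5, TCR+TSLP lies above TCR and Crlf2-deleted above control, and in Dusp2 both lung groups lie below both spleen groups.

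Of the genes around them in the cascade, many moved with TSLP as well. Among the RAF, MEK and ERK kinases and their scaffolds, 5 of 10 were higher and 2 lower. Map2k2, which encodes MEK2, averaged 162 CPM with TCR+TSLP and 282 CPM with TCR (log2 fold change -0.85, adjusted p = 0.000335, edgeR). Map2k1, which encodes MEK1 (0.60), Ksr1, a scaffold gene (0.85), and Braf (0.39) were among those that rose, and Pebp1, an inhibitor of RAF, fell (-0.36).

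Among the Ras activators and adaptors, 4 of 9 were higher and 3 lower, led by the exchange factor gene Sos2 (0.88, adjusted p = 0.000813) and by Rasgrp2, a calcium- and lipid-regulated exchange factor gene (-0.71, adjusted p = 0.0014, edgeR). Among the Ras GTPases and Ras inhibitors, 4 of 8 tested genes were higher and 0 lower, led by the GTPase-activating genes Rasa1 (0.87, adjusted p = 0.000342) and Rasa2 (0.35, adjusted p = 0.0179). With the length trend removed, that list had 1 higher and 1 lower. The other Spred gene measured well, Spred2, rose like Spred1 (0.87, adjusted p = 0.00553), and it was the only call among 3 tested relatives of Sprouty and Spred.

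Among the other MAP kinase phosphatases, 4 of 8 tested genes were higher and 2 lower. Ptpn7, a haematopoietic tyrosine phosphatase of ERK and p38, fell (-0.61, adjusted p = 0.00193, edgeR), and Dusp7, a cytoplasmic relative of Dusp6, rose (0.63, adjusted p = 0.00373). Dusp1, an immediate-early phosphatase gene of broad range, averaged 14.7 CPM with TCR+TSLP and 9.28 CPM with TCR (0.62, adjusted p = 0.00879). Among the small atypical dual-specificity phosphatases 0 of 9 were higher and 1 lower, Dusp23 (-1.07, adjusted p = 0.0105).

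Of 19 transcription factors and output genes induced by ERK, 6 were higher and 3 lower with TSLP, and their median log2 fold change was 0.05. Those with the smallest p-values were Fosl2, an AP-1 subunit gene (0.73, adjusted p = 0.000796), and Myc, a growth-promoting transcription factor gene that averaged 386 CPM with TCR+TSLP and 201 CPM with TCR (0.89, adjusted p = 0.00129, edgeR). Egr3 (0.91), Egr1 (0.52), Egr2 (0.52) and Fos (0.55) were the other 4 to rise, whereas Ier2 (-0.55), Phlda1 (-0.47) and Elk4 (-0.64) fell. Of the JNK and p38 kinases, 3 of 9 were higher and 1 lower, led by Map2k4, a kinase of JNK (0.94, adjusted p = 0.000283), and Mapk11, which encodes p38 beta (-0.46, adjusted p = 0.00499). Of the 14 genes that respond to tissue dissociation and handling, 7 were higher and 2 lower with TSLP, led by Atf3 (0.98, adjusted p = 0.000556) and Egr1 (adjusted p = 0.00212, edgeR). With library totals alone, 7 of 10 RAF, MEK and ERK genes were higher and 1 lower, and 10 of 19 ERK-induced genes were higher and 1 lower. The shares called in these lists after TMM ran from 11.1% to 77.8%, on either side of the 45.8% of all genes.

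**Figure D4:**
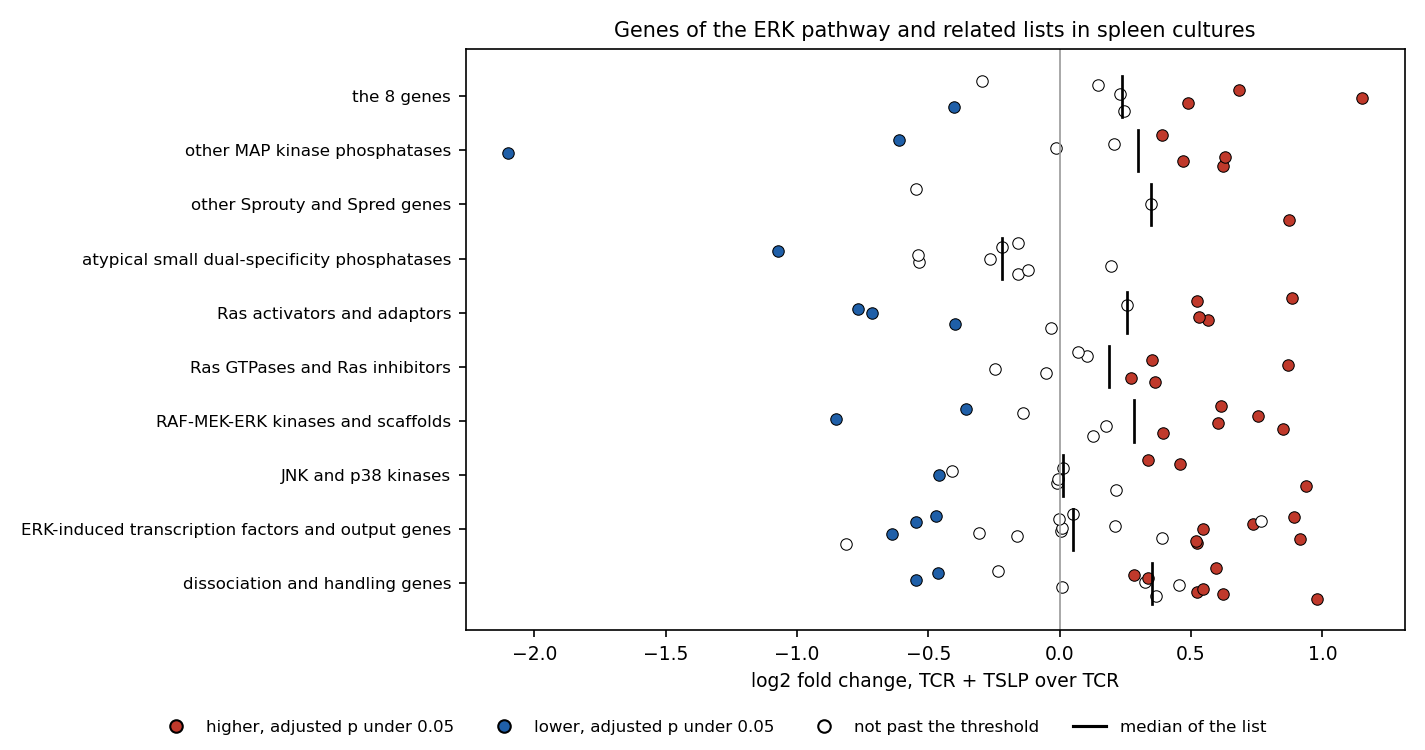
Log2 fold change (TCR+TSLP over TCR) of every tested gene of the 8-gene set and of 9 related lists, each point a gene and each line a list median, with red and blue for genes past the threshold. Calls in both directions occur in most lists, and the Dusp5 value of 1.15 is the highest shown.

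The second comparison asked how the 8 genes differed when Crlf2 was deleted in Tregs of the allergic lung. Of the 7 tested genes, 0 passed the threshold (edgeR, adjusted p under 0.05), against 1.79% of 12717 genes overall. At an unadjusted p under 0.05 there were 2, Dusp5 and Dusp10, against 15.9% of all genes. Other tools called 1 or 2 of the 8, as DESeq2 called Dusp5 and Spry2 (6.82% of all genes called), limma on log2(RPKM + 1) called Dusp5 (5.76%), and an edgeR fit of all 4 groups called Dusp5 (6.04%). Over all genes, 98 were higher and 129 lower after TMM, 137 higher and 57 lower with library totals alone, and 651 higher and 81 lower by limma. Dusp5 and Dusp10 were also those whose groups did not overlap, which held for 22% of all genes tested, 11.3% with the Crlf2-deleted group higher.

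Dusp5 had 336, 288 and 363 CPM in Crlf2-deleted lung Tregs, against 173, 249 and 165 CPM in control lung Tregs. All 3 Crlf2-deleted libraries lay above all 3 control libraries, a 1.67-fold difference (0.74 ± 0.18 SE on the log2 scale) that missed the threshold (adjusted p = 0.0919, edgeR). DESeq2 gave 0.76 (adjusted p = 0.0026), limma on log2(RPKM + 1) gave 1.15 (adjusted p = 0.0245) where the median of all genes was 0.21, against -0.04 after TMM, and a fit of all 4 groups gave 0.76 (adjusted p = 0.0211). Without control 3 the log2 fold change was 0.64 (adjusted p = 0.0908). The macrophage and monocyte markers (7 of 8 measured) summed to 2243, 2307 and 2498 CPM in Crlf2-deleted libraries and to 360, 689 and 7420 CPM in control libraries, with Marco at 0 reads in control 1 and control 2. Dusp5 was lowest in control 3, where that sum was highest, and control 3 also held the highest erythroid sum of the lung. Outside control 3, Dusp5 and the macrophage sum were both higher in the Crlf2-deleted libraries than in control 1 and control 2. Without overlap, T cell markers summed to 2858, 2472 and 2990 CPM in Crlf2-deleted libraries and to 2276, 2387 and 1580 CPM in control libraries. Of the T cell markers, Cd3e and Cd4 were higher with deletion without overlap. The groups overlapped for Cd3d and for Lck (1233, 895 and 1304 CPM with deletion against 985, 1025 and 691 CPM in controls). Endothelial marker sums ran the other way without overlap, at 73.3, 61.0 and 65.5 CPM with deletion and 92.4, 113 and 98.1 CPM in controls. Most of that sum was Pecam1, which overlapped (68.5, 58.8 and 64.3 against 66.3, 110 and 82.6 CPM) and was also read in the spleen cultures. Dendritic cell sums were lower too, by a narrow margin, at 23.1 to 28.5 CPM against 28.9 to 213 CPM. Among these markers Cd209a was lower (5.09 to 6.09 against 16.2 to 92.0 CPM). Itgax, at 6.82, 11.8 and 9.82 CPM with deletion, was above control 1 and control 2 (2.48 and 1.88 CPM) and below control 3 (75.8 CPM). The part of any of these cells in the differences of Dusp5 and Dusp10 was not tested.

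Dusp10 had 173, 124 and 150.4 CPM in Crlf2-deleted lung Tregs, against 116, 118 and 113 CPM in control lung Tregs. The control libraries were close to each other and all lay under the lowest Crlf2-deleted library, by a small margin for Crlf2-deleted 2 (log2 fold change 0.35 ± 0.15 SE, adjusted p = 0.311, edgeR). Without control 3 it was 0.33 (adjusted p = 0.327).

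Dusp2 had 54.7, 64.3 and 76.6 CPM in Crlf2-deleted lung Tregs, against 49.0, 35.8 and 72.4 CPM in control lung Tregs (0.27 ± 0.25 SE, adjusted p = 0.66). Dusp4 had 73.6, 75.5 and 89.2 CPM in Crlf2-deleted lung Tregs, against 81.0, 74.1 and 41.0 CPM in control lung Tregs (0.27 ± 0.25 SE, adjusted p = 0.649, edgeR). The groups of both genes overlapped. Control 3 was the highest control for Dusp2 and the lowest for Dusp4, and without it the log2 fold changes were 0.57 for Dusp2 (adjusted p = 0.194) and 0.01 for Dusp4 (adjusted p = 0.978).

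Dusp6 shows the weight of that library. It had 38.5, 31.9 and 40.9 CPM in Crlf2-deleted lung Tregs, against 24.6, 31.4 and 89.2 CPM in control lung Tregs. The log2 difference with control 3 was -0.43 ± 0.46 SE (adjusted p = 0.703), and without it 0.42 ± 0.23 SE (adjusted p = 0.371, edgeR), so the direction turned and neither value passed.

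Spry1 had 7.82, 9.82 and 12.6 CPM in Crlf2-deleted lung Tregs, against 11.5, 12.6 and 13.1 CPM in control lung Tregs, with overlap (-0.32 ± 0.31 SE, adjusted p = 0.677, edgeR; -0.26, adjusted p = 0.746, without control 3). Spry2 and Spred1 were close to absent from most lung libraries. Spry2 had 2, 9 and 8 reads in Crlf2-deleted libraries and 11, 1 and 149 reads in control libraries, and it did not enter the edgeR test. DESeq2 called it lower in the Crlf2-deleted group, and 149 of its 161 control reads came from control 3. Spred1 had 5, 11 and 8 reads in Crlf2-deleted libraries and 1, 2 and 45 reads in control libraries (log2 fold change -1.75 ± 1.08 SE, adjusted p = 0.491, edgeR), again with control 3 far above the others. Without control 3 neither gene entered the edgeR test.

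**Figure D5:**
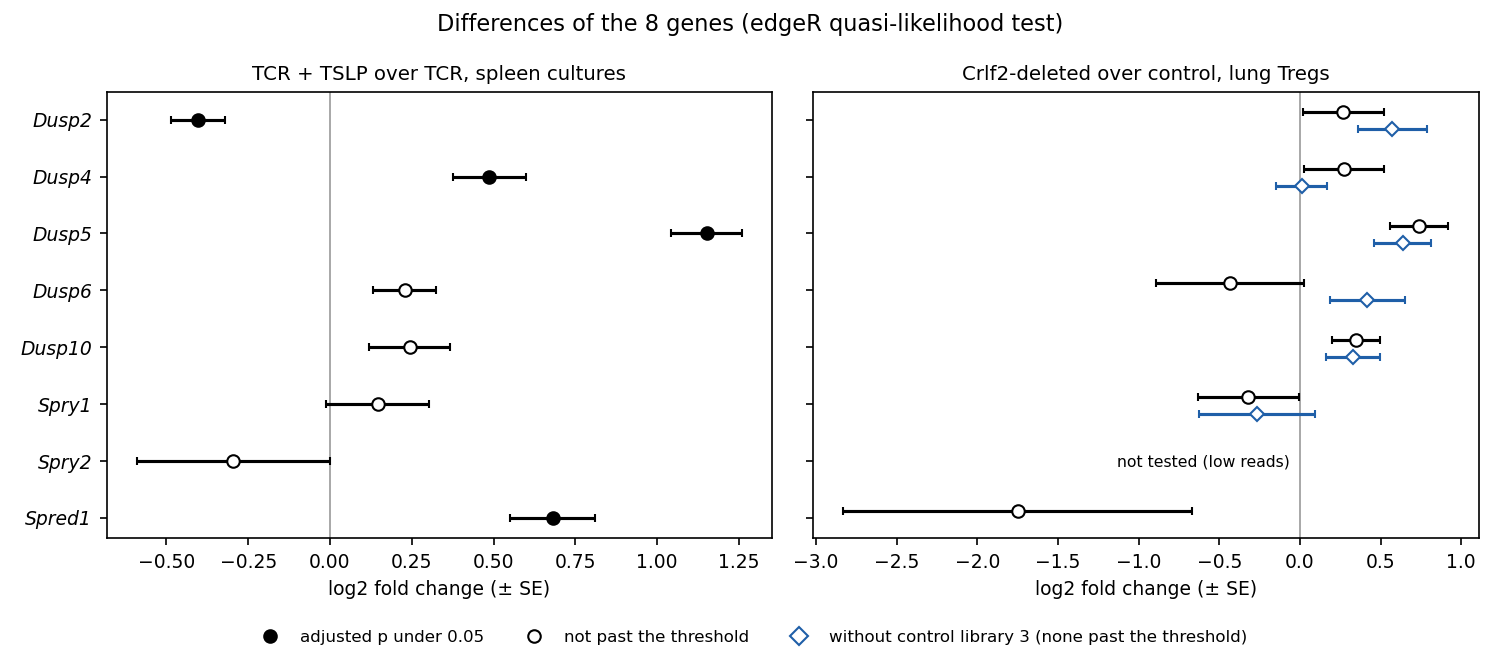
Log2 fold change ± SE of the 8 genes, TCR+TSLP over TCR (left) and Crlf2-deleted over control in lung (right), filled where the adjusted p passed 0.05, with blue diamonds for the lung values without control 3, in which Spry2 and Spred1 were not tested. Dusp5 is highest in both panels, and Dusp6 changes sign on the right when control 3 is left out.

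None of the related lists held a gene past the threshold in the lung comparison (edgeR, all 6 lung libraries), and at an unadjusted p under 0.05 they held between 0 and 4 genes. Those with the smallest p-values among the ERK-induced genes were Myc, at 54.0 CPM on average in Crlf2-deleted lung Tregs and 105 CPM in control lung Tregs (-0.99, adjusted p = 0.0506), and Elk3, a gene of an ETS factor (0.70, adjusted p = 0.086). Rasa3, a GTPase-activating gene for Ras and Rap, was at 197.8 CPM in Crlf2-deleted lung Tregs and 277 CPM in control lung Tregs (-0.51, adjusted p = 0.0737). Without control 3, 4 of 18 ERK-induced genes were higher and 0 lower in the Crlf2-deleted group, namely Egr1 (1.07, adjusted p = 0.00601), Fosl2 (1.20, adjusted p = 0.0103), Ier3 (2.11, adjusted p = 0.0201) and Fos (0.50, adjusted p = 0.0485), as was Dusp1 (0.84, adjusted p = 0.0117, edgeR), against 4.11% of all genes tested. Egr1, Fos and Dusp1 are also among the 14 genes listed for tissue dissociation and handling, of which 3 were higher there. Whether the TSLP effect in spleen and the deletion effect in lung differ for any of the 8 genes was not tested.

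The third comparison set control lung Tregs against TCR-stimulated spleen Tregs. Tissue, immunization, Cre allele, 24 h culture and antibody stimulation differ together here, the kit used for the lung libraries is not stated separately, and these cannot be told apart. It shares its control lung libraries with the second comparison and its TCR libraries with the first. Of the 8 genes, 2 were higher in lung (Dusp5 and Dusp10) and 2 lower (Dusp2 and Spred1), where 51.8% of 13325 tested genes were called (25.5% higher and 26.3% lower, edgeR, adjusted p under 0.05). By limma on log2(RPKM + 1) the calls over all genes were 1192 higher and 6586 lower, and those among the 8 were 2 higher and 4 lower.

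Dusp5 averaged 195.4 ± 46.4 CPM in control lung Tregs (SD, n = 3) and 28.4 ± 2.01 CPM in TCR spleen Tregs (SD, n = 2), a 7.09-fold difference (log2 fold change 2.82 ± 0.24 SE, adjusted p = 9.56e-05, edgeR). Dusp10 averaged 116 ± 2.54 CPM in control lung Tregs and 35.9 ± 5.84 CPM in TCR spleen Tregs (1.74 ± 0.18 SE, adjusted p = 0.00025). Dusp2 went the other way, with 52.4 ± 18.5 CPM in control lung Tregs and 234 ± 6.92 CPM in TCR spleen Tregs (-2.07 ± 0.27 SE, adjusted p = 0.000674). For these 3 genes, and also for Spred1 and the uncalled Spry1, every control lung library lay on the same side of both TCR libraries. The share of all genes without overlap is not given for this comparison, so the separation is only descriptive. Without control 3 the log2 fold changes were 2.97 for Dusp5, 1.80 for Dusp10 and -2.33 for Dusp2, and by limma on log2(RPKM + 1) they were 1.76, 0.69 and -2.88, all called.

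Spred1 averaged 1.77 ± 1.96 CPM in control lung Tregs and 22.4 ± 3.97 CPM in TCR spleen Tregs, 11.1-fold lower in lung (-3.48 ± 0.95 SE, adjusted p = 0.0182, edgeR). The call was lost without TCR 1 (adjusted p = 0.0764), without TCR 2 (0.112) and without control 2 (0.0592), while all 3 lung libraries stayed under both TCR libraries. The size rests on single libraries, as control 3 held 45 of the 48 control reads. Without control 3 the fitted log2 fold change was -5.93 (adjusted p = 0.000318), and without control 1 it was -2.79 (adjusted p = 0.00571, edgeR). The 3 reads of control 1 and control 2, set against 1038 TCR reads, gave a CPM ratio of 0.0139 (exact 95% interval 0.00287 to 0.0408, counting error only). By limma on log2(RPKM + 1) the difference was -1.06 (adjusted p = 0.000795). Dusp4 did not pass (0.06 ± 0.30 SE, adjusted p = 0.879), and on the log2(RPKM + 1) scale it was lower in lung (-0.79, adjusted p = 0.0245, limma), where the median of all genes was -0.45. Spry1 (-0.46 ± 0.34 SE, adjusted p = 0.28), Dusp6 (-0.19 ± 0.54 SE) and Spry2 (1.37 ± 1.15 SE) did not pass either. Without control 3, Dusp6 was lower in lung (-1.002, adjusted p = 0.00771), Spry2 turned to -0.80 with no call, and Dusp4 (0.37) and Spry1 (-0.48) still did not pass.

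The cascade around them differed in both directions. Of the RAF, MEK and ERK genes 3 of 10 were higher and 3 lower in lung, led by Map2k1 (1.45, adjusted p = 0.00105, edgeR) and Pebp1 (-0.86, adjusted p = 0.00684). Of the Ras activators and adaptors 3 of 9 were higher and 0 lower, led by Rasgrp2 (2.14) and by Plcg1 (2.15), a phospholipase gene of TCR signalling. Of the Ras GTPases and Ras inhibitors 2 of 8 were higher and 3 lower, led by the rises of Rasa3 (3.07) and Rasal3 (1.49). The other MAP kinase phosphatases had 1 of 6 tested genes higher, Dusp1, and 2 lower, Ptpn7 (-1.53) and Ptpn5 (-3.73), and their Sprouty and Spred relatives had 0 of 3 called, or 2 lower without control 3. The JNK and p38 kinases had 2 of 9 higher, Map2k3 (1.78) and Mapk13 (3.75), and the small atypical phosphatases 1 of 9 higher, Dusp3 (2.97), and 1 lower, Dusp11 (-0.44).

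Genes known to respond to tissue dissociation and handling moved strongly in the same contrast. Of 14 such genes, 10 were higher in control lung Tregs and 1 lower, with a median log2 fold change of 2.89. Dusp1 averaged 1298 CPM in control lung Tregs and 9.28 CPM in TCR spleen Tregs (7.18, adjusted p = 1.31e-05, edgeR), and Junb, an AP-1 subunit gene, averaged 2888 CPM in control lung Tregs and 381 CPM in TCR spleen Tregs (2.98). Their part in the higher Dusp5 and Dusp10 was not tested. The ERK-induced genes were mixed, with 4 of 19 higher and 7 lower in lung, as Fosb (6.12) was higher and Egr3 (-4.35), a TCR-induced factor gene, was lower.

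Across all 4 groups the order of mean levels differed from gene to gene. Groups did not overlap for 75.9% of all genes tested with TSLP and for 22% in the lung Crlf2 comparison. Between lung and spleen that share is not given, so the orders are only descriptive. Dusp5 and Dusp10 ran from Crlf2-deleted lung through control lung and TCR+TSLP to TCR, with no overlap between neighbours. Dusp2 ran from TCR through TCR+TSLP to the Crlf2-deleted and control lung groups, and only the lung groups overlapped. For Dusp4 every neighbouring pair of groups overlapped. Spred1 was highest with TCR+TSLP, then TCR, with the lung groups overlapping at the bottom. Dusp6 was higher with TCR+TSLP than with TCR without overlap, its lung groups overlapped each other, and control 3 alone brought the control lung group into overlap with the TCR group. Spry1 overlapped within each tissue, and both lung groups lay below both spleen groups. Spry2 had its highest mean in control lung only through control 3, and the Crlf2-deleted group lay below both spleen groups.

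Genes with the most similar pattern over the 10 libraries were sought among 8621 genes with a mean RPKM of at least 1, by the root mean square difference of centred log2 CPM. The nearest to Dusp5 were Rbl2, a pocket protein gene of the cell cycle, at 0.21, and Tigit, an inhibitory receptor gene of Tregs, at 0.23, while Dusp5 itself spanned 3.74 log2 units. The nearest to Dusp2 were Mrpl16 (0.13) and Klhdc4 (0.15), to Dusp10 Scamp3 (0.12) and Sh3gl1 (0.14), and to Dusp4 Zfp275 (0.16) and Fbxo28 (0.17). Dusp6 was nearest to Sco2 (0.22) and Ptpn6 (0.24), and Spry1 to Atp5f1 (0.12) and Srsf9 (0.12). Spry2 and Spred1 had no close match, the nearest being Batf3 (0.63) and Cd79a (0.66) for Spry2 and Srm (0.77) and Gsk3a (0.77) for Spred1. These are descriptions over 10 libraries, in which the spleen and lung groups differ in tissue, culture and stimulation together.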

How the data were processed

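Whole reads per RefSeq transcript (counts) were deposited as 1 file for each of 10 libraries, with 31682 transcripts each, per the file headers. RPKM values, deposited beside them by the authors, use library totals above the sum of the listed reads. Of software, the submitters' processing notes give bedtools 2.25.0, edgeR, SAMtools 0.1.8, TopHat2 2.2.1 and Bowtie2 2.2.6, without their roles, and of builds mm10 (GRCm38). The sources used here do not give how reads were counted, whether strand was used or what became of multimapping reads. TCR-stimulated cells went through a stranded kit with ribosomal RNA depletion, per the labels' protocols, and were read as 50 bp single ends.

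For each symbol the transcript with the highest mean reads was used (4343 symbols had several). Each pair of groups was tested by the quasi-likelihood test of edgeR 4.0.16 (R 4.3.3) with TMM, filterByExpr (minimum count 10) and robust moderation. Tests are two-sided, p-values were adjusted by Benjamini-Hochberg over all genes tested, and the threshold was 0.05. The SE was taken from the log2 fold change and the F statistic. The test was checked on simulated counts. Alternatives were DESeq2 1.42.0, limma 3.58.1, other scalings and filters, transcripts summed, all 4 groups in 1 fit, a trend on transcript length removed (loess, span 0.3), the replicate number as a block, and each library left out. Length and GC trends removed together (210 symbols lack a GC value) and a crossed block were added after the data were seen. The genes and lists were chosen with earlier results of these data known. The genes named from a related list were mainly the 2 with the smallest p in a comparison, and others to account for a count. In the lung Crlf2 comparison only some of those 2 per list are named. The results of 2 genes of these lists are not reported here. Replicate libraries of every group differed beyond counting noise (chi-square per degree of freedom 6.09 to 172), so none was merged.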

Additional observations from a re-analysis of the deposited data

How the results depend on the processing

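Dusp5 was called higher with TSLP in all 19 alternatives, and Dusp5, Dusp10 and Dusp2 kept their direction and call between control lung and TCR spleen Tregs in all 19. Of the 8 genes, 4 were called in the TSLP comparison, against 1 with all 4 groups in 1 fit, 2 with length and GC trends removed, and 2 (without TCR+TSLP 2) to 7 (without TCR 2) when 1 library was left out. In the lung Crlf2 comparison 0 were called, and also 0 with any 1 library left out, against 2 by DESeq2, 1 by limma on log2(RPKM + 1), 1 by limma on log2(RPKM + 0.1) and 1 with all 4 groups in 1 fit. Between lung and spleen 4 were called, and 3 to 5 with 1 library left out. Dusp4 was called lower in lung by limma on log2(RPKM + 1) (-0.79, adjusted p = 0.0245) and log2(RPKM + 0.1) (-0.90, adjusted p = 0.026), against 0.06 on counts. The listed reads were 24.9%, 21.2% and 30.1% of the library totals used for RPKM in control lung, and 52.9% and 59.7% in TCR spleen. The cause of the Dusp4 difference between scales was not tested. Signs also turned, with no call, for Spry2 in the TSLP comparison by limma (0.02 and 0.05), and for Spry1 (0.05 and 0.07) and Dusp6 (0.14 and 0.24) in the lung Crlf2 comparison by limma. Between lung and spleen, signs turned for Dusp4 in 7 of 19 alternatives (the 2 above, the others down to -0.16 with no call), for Dusp6 in 2 (0.16 without control 1 and 0.03 without control 2) and for Spry2 in 4 of 18 (down to -0.97), with no call for Dusp6 or Spry2 there.

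Counts over all genes moved by more than 1.5 times in several settings. With TSLP, 6050 genes were called, against 1356 with all 4 groups in 1 fit and 3761 and 3212 without TCR+TSLP 1 and 2. In the lung Crlf2 comparison, 227 were called, against 938 by DESeq2, 732 and 674 by limma, 873 with all 4 groups in 1 fit, 134 with transcripts summed, and 4 to 532 with 1 library left out, the highest without control 3. Between lung and spleen, 6907 were called, against 3584 and 3467 without TCR 1 and 2. The deviations of same-numbered libraries correlated at -0.13 with TSLP, at 0.08, -0.15 and -0.05 in lung, and at 0.03 and 0.06 between lung and spleen. With 2 libraries a group the deviations mirror each other, so the TSLP comparison gives a single value. Whether samples were paired, by number or otherwise, cannot be settled from these correlations. With the replicate block, 4 of the 8 genes and 5817 genes in all were called with TSLP, 0 and 121 in the lung Crlf2 comparison, and 5 and 7420 between lung and spleen. A crossed replicate block gave 5 of the 8 and 7107 genes with TSLP. Depth limits Spry2 and Spred1 in lung, where most libraries held 1 to 11 reads of each, and control 2 throughout.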
